A study of Rattus norvegicus with 10 samples.

Results

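The gene expression table of PCK rat kidney was searched for chemokines and their receptors. A protein-coding gene was taken when its symbol was that of a chemokine (*Ccl*, *Cxcl*, *Cx3cl* or *Xcl* with a number), of a receptor (*Ccr*, *Cxcr*, *Cx3cr* or *Xcr*) or of an atypical receptor (*Ackr*), whatever its level. This gave 56 of the 32545 genes in the table, made up of 34 ligands (20 *Ccl*, 12 *Cxcl*, *Cx3cl1* and *Xcl1*), 19 signalling receptors and 3 atypical receptors. *Ackr1* and *Cxcl5* were not matched by symbol and are not analysed here. The samples were 5 male and 5 female PCK rats of the strain PCK/CrljCrl-Pkhd1pck/Crl, with 1 library per rat. All of them, in both groups, carry the mutation in *Pkhd1*, the gene for fibrocystin that is mutated in autosomal recessive polycystic kidney disease, so each comparison is between the sexes within cystic kidneys, with no wild-type rats and no treatment named in the labels. The tissue is snap-frozen renal cortex at 10 to 12 weeks of age according to the methods of the study, and kidney at 12 to 14 weeks according to the sample labels. The rats were littermates from 2 litters with different parents. Litter was not given per library in the sample labels or the methods of the study, so a difference between litters was not taken out of any value here.

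Chemokines are small secreted or membrane-bound proteins that guide the movement of leukocytes. They bind receptors with 7 membrane-spanning segments that signal through Gi proteins, whereas atypical receptors bind chemokines without that signal and clear them from the tissue. Inflammatory chemokines are induced in injured tubules, endothelium and macrophages by NF-kB and interferons and draw in monocytes, T cells and neutrophils, while homeostatic chemokines place lymphocytes and dendritic cells within tissues. In cystic kidneys, monocytes and macrophages recruited through this system are a well-known part of the disease.

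Expression is given as FPKM, the number of fragments per kilobase of gene and unit of library size, so that levels of different genes can be set side by side per length. The library size in the deposited values was not the total of reads: reads on genes were 0.932 to 1.02 times the size that the worth of 1 read implies for the males and 0.947 to 1.11 times for the females, while the median-ratio factor between libraries was 1.01 in all 10. Between 13912569 and 20285911 reads fell on genes in each library, and mitochondrial genes took 14.3% to 26.8% of them, with the highest share in the library female 2. Markers of kidney epithelium were abundant in all 10 libraries: the summed level of 7 proximal tubule markers was 1683 to 2924 FPKM for the males and 1454 to 2993 FPKM for the females, and that of 4 thick ascending limb markers was 1079 to 1616 FPKM and 1201 to 1819 FPKM. On a gene of 1 kb, 1 read was worth 0.0486 to 0.0710 FPKM, and a gene with at most 3 reads was taken as not detectable at this depth. Of the 56 genes, 36 had more than 3 reads in every library, 34 averaged 1 FPKM or more and 8 averaged 10 FPKM or more. The test across genes covered the 50 whose mean reached 0.1 FPKM (31 ligands, 17 receptors and 2 atypical receptors). The other 6 were *Ackr2*, *Ccl11*, *Ccl25*, *Ccr1l1*, *Cxcl3* and *Cxcr1*, of which *Cxcr1* had no read in any library.

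Promoter windows of some of the members are given first. Each reaches from 250 bases before to 50 bases after the start of transcription, as RefSeq places it on the rat build GRCr8. They are *Cxcl16*, *Cx3cl1*, *Cxcl12*, *Cxcr4* and *Ccl24*, which passed the exact permutation test given below, and *Cxcl11*, which passed the test across genes only without female 2. *Ccr1* and *Xcr1* also passed that exact test and are not shown. RefSeq had such a window for 43 of the 56 genes. Both strands of each were searched for the kappa B motif of NF-kB (GGG and CC with 5 bases between them), the core of the interferon-stimulated response element (GAAA repeated after 2 bases) and the TATA box (TATAAA), and capitals mark a match to any of them. The windows are chr10:55669901-55670200 (- strand) for *Cxcl16*, chr19:10242771-10243070 (- strand) for *Cx3cl1*, chr4:152060531-152060830 (+ strand) for *Cxcl12*, chr13:42634239-42634538 (- strand) for *Cxcr4*, chr12:26737173-26737472 (+ strand) for *Ccl24* and chr14:15973478-15973777 (+ strand) for *Cxcl11*, each printed 5′ to 3′ on the strand of the gene.
Cxcl16: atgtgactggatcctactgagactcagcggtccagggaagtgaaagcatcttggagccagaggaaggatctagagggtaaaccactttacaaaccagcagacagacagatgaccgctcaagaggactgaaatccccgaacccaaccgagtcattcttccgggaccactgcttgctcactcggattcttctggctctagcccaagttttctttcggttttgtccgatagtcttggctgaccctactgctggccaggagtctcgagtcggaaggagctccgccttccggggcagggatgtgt
Cx3cl1: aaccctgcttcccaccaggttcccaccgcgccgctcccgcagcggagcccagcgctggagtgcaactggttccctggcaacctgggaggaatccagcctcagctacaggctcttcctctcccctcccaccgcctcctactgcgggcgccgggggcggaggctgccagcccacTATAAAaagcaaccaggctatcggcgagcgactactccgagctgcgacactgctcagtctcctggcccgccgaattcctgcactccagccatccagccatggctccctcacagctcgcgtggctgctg
Cxcl12: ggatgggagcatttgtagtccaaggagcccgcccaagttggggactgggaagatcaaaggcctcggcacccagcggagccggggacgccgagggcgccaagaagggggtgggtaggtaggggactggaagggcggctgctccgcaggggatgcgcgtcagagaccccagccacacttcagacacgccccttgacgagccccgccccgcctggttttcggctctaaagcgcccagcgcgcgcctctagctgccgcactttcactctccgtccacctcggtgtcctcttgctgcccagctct
Cxcr4: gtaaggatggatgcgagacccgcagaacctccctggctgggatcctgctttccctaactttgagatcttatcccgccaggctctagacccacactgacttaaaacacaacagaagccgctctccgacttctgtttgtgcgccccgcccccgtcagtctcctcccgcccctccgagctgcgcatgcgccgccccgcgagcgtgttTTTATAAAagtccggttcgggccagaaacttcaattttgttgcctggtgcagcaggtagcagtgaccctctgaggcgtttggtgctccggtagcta
Ccl24: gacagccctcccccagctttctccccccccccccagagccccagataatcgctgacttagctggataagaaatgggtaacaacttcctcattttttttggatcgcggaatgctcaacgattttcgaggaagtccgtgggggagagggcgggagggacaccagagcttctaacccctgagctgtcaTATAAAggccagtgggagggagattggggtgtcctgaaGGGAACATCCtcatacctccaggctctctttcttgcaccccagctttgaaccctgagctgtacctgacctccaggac
Cxcl11: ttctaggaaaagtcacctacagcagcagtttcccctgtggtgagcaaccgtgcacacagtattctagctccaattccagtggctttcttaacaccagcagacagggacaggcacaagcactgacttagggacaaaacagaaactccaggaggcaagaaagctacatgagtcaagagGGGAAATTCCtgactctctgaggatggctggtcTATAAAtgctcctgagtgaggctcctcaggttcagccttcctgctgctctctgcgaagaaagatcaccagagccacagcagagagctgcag

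In these 6 windows, a TATA box lay upstream of the start in *Cx3cl1*, *Cxcr4*, *Ccl24* and *Cxcl11*, and in *Cxcr4* it was read on both strands, so that 2 matches overlap. A kappa B match lay in *Ccl24* and in *Cxcl11*. The windows of *Cxcl16* and *Cxcl12* held none of the 3 motifs. Over all members with a window, the TATA box letters were found in 12 of 43 (27.9%), against 14.2% of the 33469 rat windows. A match at any position on either strand was counted, from −238 in *Ccr1l1* to 39 in *Ccl9*. The share is thus not one of TATA boxes at a set distance from the start. The kappa B motif, with its 5 open positions, was found in 22 of 43 (51.2%) against 47.3%, so its letters were nearly as common in other promoters. The interferon motif was found in *Ccl19* and *Cxcl10* (4.65% of the 43 windows, against 3.92% of all). The palindromic response elements of the oestrogen receptor (GGTCA and TGACC with 3 bases between them) and the androgen receptor (AGAACA and TGTTCT, also 3 bases apart) had no match in any of the 43 windows, and they were also rare elsewhere, at 0.0269% and 0.0149% of all windows. No match of one motif overlapped a match of another in these genes. A match is a run of letters and not a shown binding site.

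Most chemokine and receptor genes had a lower mean log2 level in female than in male PCK rats, but none passed the test across all genes. Of the 50 genes tested, 42 (84%) had a log2 difference below 0, female minus male, on the log2(FPKM + 0.1) scale, against 51.2% of the 17631 genes tested. Their median difference was −0.46, and that of all genes was −0.01. By group, the median was −0.45 in the 31 ligands, −0.51 in the 17 signalling receptors and 0.03 in the 2 atypical receptors. In limma with Benjamini-Hochberg adjustment over all 17631 genes, 0 of the 50 had an adjusted p of 0.05 or less in either direction, where the background was 1.14% of all genes lower in females and 1.26% higher. Adding the condition of a 2-fold difference also left 0 of the 50, against 1.32% of all genes. At an unadjusted limma p of 0.05 or less, 12 of the 50 (24%) were lower in females, against 8.07% of all genes, and 1 was higher, against 7.67%. Among the 12 were *Ccl2*, *Ccl9*, *Ccl22*, *Ccl24*, *Ccr1*, *Cx3cl1*, *Cx3cr1*, *Cxcl11*, *Cxcl12*, *Cxcl16* and *Cxcr4*, and the 1 was *Ccl1*, which had at most 2 reads in any library.

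**Figure D1:**
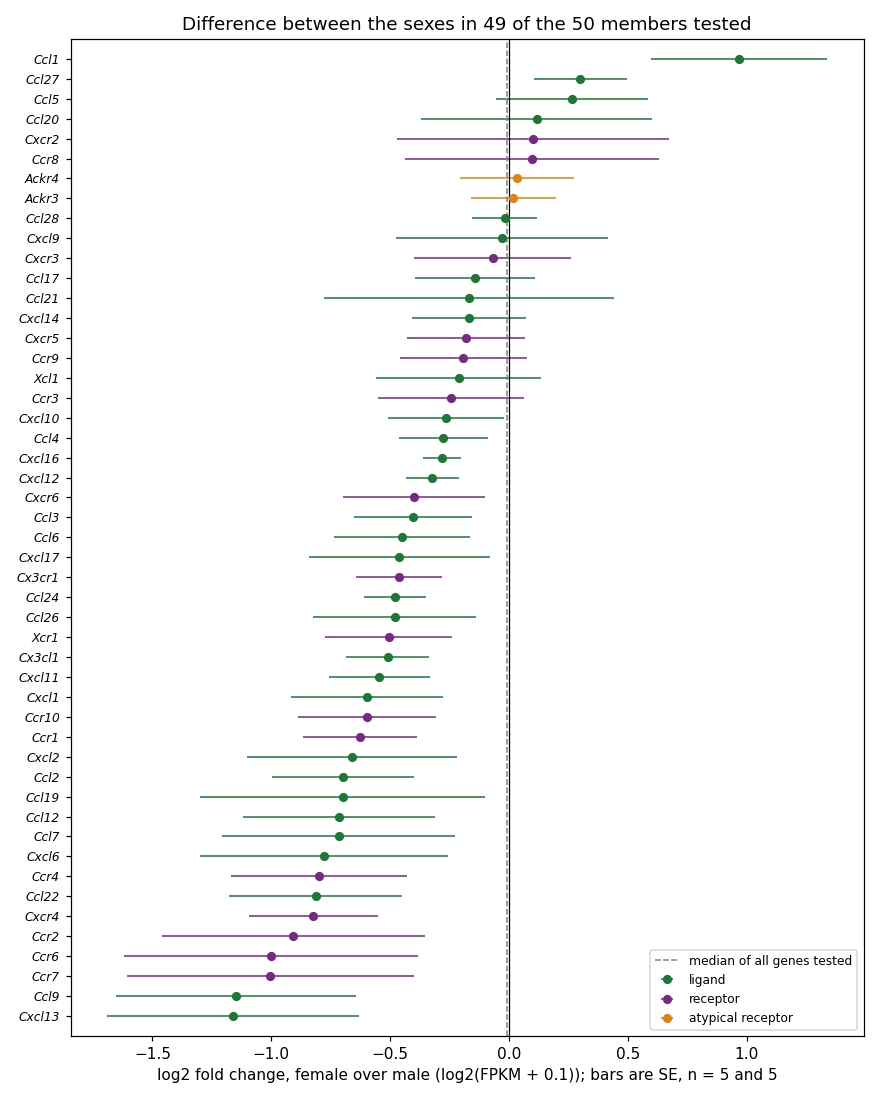
Log2 fold change, female over male, on the log2(FPKM + 0.1) scale for 49 of the 50 chemokine and receptor genes tested, with the standard error from limma as bars (5 rats of each sex) and the median of all genes as a dashed line. Of the 49 points, 41 lie to the left of 0, and the largest positive value is that of *Ccl1*, a gene with at most 2 reads in any library.

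**Figure D2:**
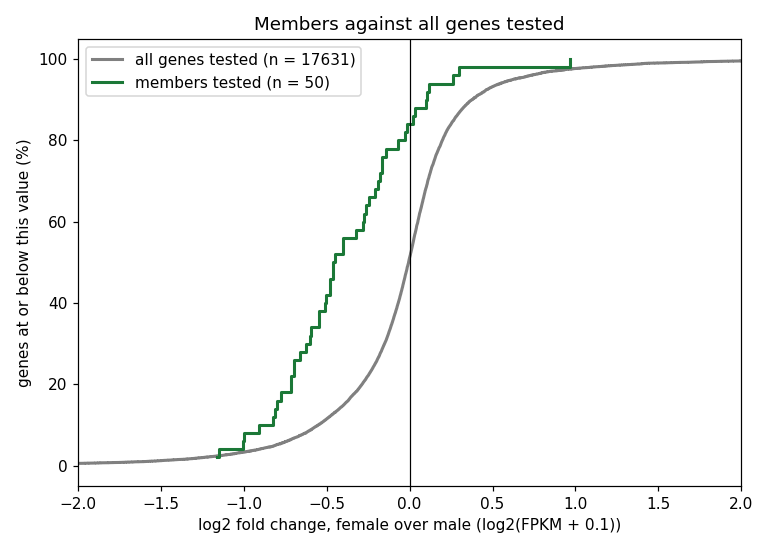
Cumulative share of genes (%) at or below each log2 fold change, female over male, for the 50 chemokine and receptor genes (green) and all 17631 genes tested (grey), with the axis ended at 2 on either side. At 0 the green line is at 84% and the grey line at 51.2%.

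Library female 2 bore on these counts. Without it, 47 of the 50 genes had a difference below 0 (49.8% of all genes), 23 were lower at an unadjusted limma p of 0.05 or less (10.5% of all genes), and 3 passed at an adjusted limma p of 0.05 or less (1.48% of all genes lower). These were *Cx3cl1* (log2 fold change −0.66, adjusted p = 0.0330), *Cxcl11* (−0.74, adjusted p = 0.0330) and *Cxcr4* (−1.02, adjusted p = 0.0465), and *Cxcr4* alone was also past 2-fold (1.47% of all genes). When male 5, the male library with the most of these genes at their highest level, was left out together with female 2, 43 of the 50 lay below 0 (50.1% of all genes) and 20 were lower at the unadjusted threshold (9.30% of all genes) and 1, *Ccl5*, was higher (9.43% of all genes). *Cx3cl1* was then the one gene with an adjusted limma p of 0.05 or less (log2 fold change −0.71, adjusted p = 0.0411, against 0.879% of all genes). The unadjusted count was 7 without female 3 (7.66% of all genes), female 4 (6.64%), male 1 (6.72%) or male 5 (7.07%), and 5 of the 50, or 10%, without female 5 (6.40% of all genes). Scaling by total reads shifted the share of all genes below 0 to 63.9% and the median of all genes to −0.08, with 44 of the 50 genes below 0, and *Ccl24* then had an adjusted limma p of 0.0351. Over all genes it moved the calls at an adjusted p of 0.05 or less from 201 lower and 223 higher to 235 lower and 170 higher.

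Leukocyte markers had mostly lower levels in females too. Of 12 macrophage markers 11 had a lower mean log2 level in females, and their summed level was 653 to 1373 FPKM for the males and 391 to 884 FPKM for the females. Of 10 T cell markers 9 were lower, with sums of 38.6 to 76.5 FPKM and 19.8 to 53.9 FPKM, and of 6 B cell markers all 6 were lower, with sums of 5.65 to 19.0 FPKM and 1.43 to 22.0 FPKM. None of these 28 markers had an adjusted limma p of 0.05 or less, and none was at 0 in all libraries. Of 4 NK cell markers tested 3 were lower and 1 higher, with a median difference of −0.21. The sums over all NK cell markers found were close, at 4.28 to 8.86 FPKM for the males and 4.13 to 8.26 FPKM for the females. All 4 neutrophil markers tested were lower, and their sums are given below. All 7 fibroblast and pericyte markers had a lower mean log2 level in females (264 to 351 FPKM for the males, 86.9 to 249.9 FPKM for the females), and *Col3a1* among them passed at an adjusted limma p of 0.0477. All 6 tubule injury markers tested were lower in mean log2 level, with a median difference of −0.94. The sum over all 7 listed, mostly *Spp1*, was 3905 to 7647 FPKM for the males and 1114 to 6274 FPKM for the females. *Sox9* among them passed in limma (log2 fold change −1.27, adjusted p = 0.0359), and *Vcam1* is also counted with the adhesion genes. All 8 collecting duct markers had a higher mean log2 level in females (262 to 415 FPKM for the males, 366 to 506 FPKM for the females), of which *Avpr2* passed (adjusted p = 0.0469). Of 8 endothelial markers 5 were higher and 3 lower, with a median of 0.03 and sums of 121 to 159 FPKM and 124 to 172 FPKM, and *Vwf* among them passed as higher in females (log2 fold change 1.19, adjusted p = 0.0118). All 4 thick ascending limb markers were higher, of which *Kcnj1* passed (adjusted p = 0.00263). Of 7 proximal tubule markers 4 were higher and 3 lower, with a median of 0.16, and *Cubn* passed as higher (adjusted p = 0.0467). The part of these markers in the difference of the chemokine genes was not tested. In whole tissue, fewer cells of a type and less RNA per cell cannot be told apart.

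In the exact permutation test of mean FPKM (two-sided, all splits of the 10 rats, smallest p possible 0.00794), 52 members with more than 3 reads in at least 1 library were tested singly. Of these, 7 had a p of 0.05 or less, all lower in females: *Cxcl16*, *Cx3cl1*, *Cxcl12*, *Ccl24*, *Cxcr4*, *Ccr1* and *Xcr1*. Of the 50 genes of the limma fit, 7 were lower and 1 was higher at that threshold. The 1 was *Ccl1*, left out of the 52 for its few reads (exact permutation p = 0.00794). Among all genes tested, with no limit on reads, 7.38% had such a p lower in females and 7.45% higher. The levels of *Cxcl16* alone among the 7 did not overlap between the sexes. That is 1 of the 50 genes tested (2%), and 2.60% of all genes showed such a separation in that direction. *Cxcl16* and *Ccl24* kept an exact p of 0.05 or less with each of the 10 libraries left out in turn. The other 5 each lost it without one or more libraries, and the count of 7 ranged from 2, without female 5, to 16, without female 2. The 2 were 3.85% of the 52 members, against 5.70% of all genes in the same libraries, and the 16 were 30.8%, against 8.75%. For the members described below that did not pass with all libraries, every single library without which the exact p was 0.05 or less is named.

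The 2 membrane-bound chemokines were among the most abundant members. *Cxcl16* (ENSRNOG00000026647, chromosome 10, 57060007 to 57064600 on Rnor_6.0) encodes a transmembrane chemokine that also takes up oxidised lipoproteins, and it had the highest mean of all 56 genes. Its levels were 124, 121, 122, 105 and 111 FPKM in males 1 to 5 and 96.8, 104, 102, 87.7 and 89.8 FPKM in females 1 to 5. Every female value lay below every male value. The means were 117 ± 8.30 FPKM (SD, n = 5) in the males and 96.0 ± 7.08 FPKM (SD, n = 5) in the females, 1.21-fold higher in males (exact permutation test, p = 0.00794, and limma log2 fold change −0.28, SE 0.08, adjusted p = 0.109). *Cxcl16* overlaps *Zmynd15*, and the strand setting of the counting is not given in the sources used here. Its receptor *Cxcr6* (ENSRNOG00000006319, chromosome 8, 132869712 to 132870767), found on T cells and NKT cells, was at 2.88, 2.91, 2.04, 1.52 and 3.35 FPKM in the males and 2.99, 2.62, 1.46, 1.02 and 1.73 FPKM in the females. The 2 ranges overlapped over most of their length, and the difference did not pass the test (exact permutation p = 0.270, limma adjusted p = 0.574). *Cxcr6* overlaps *Fyco1*.

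*Cx3cl1* (ENSRNOG00000016326, chromosome 19, 10644244 to 10653800), which encodes the adhesion molecule and chemokine fractalkine, was at 50.6, 49.2, 47.8, 53.3 and 41.4 FPKM in the males and 32.3, 50.7, 37.1, 22.8 and 32.2 FPKM in the females. Female 2 lay within the male range and the other 4 females below it. The means were 48.5 ± 4.46 FPKM (SD, n = 5) in the males and 35.0 ± 10.2 FPKM (SD, n = 5) in the females, 1.38-fold higher in males (exact permutation p = 0.0397, and limma log2 fold change −0.51, SE 0.17, adjusted p = 0.175). The exact p rose above 0.05, to at most 0.0714, when any of males 1 to 4 or females 1, 3, 4 or 5 was left out, and it was 0.00794 without female 2. Its receptor *Cx3cr1* (ENSRNOG00000018509, chromosome 8, 128740756 to 128754514), carried by monocytes and tissue macrophages, was at 8.21, 7.59, 10.9, 8.94 and 13.1 FPKM in the males and 8.81, 7.82, 7.28, 4.94 and 6.35 FPKM in the females. Males 3, 4 and 5 lay above all females, while males 1 and 2 lay within the female range. The means of *Cx3cr1* were 9.76 ± 2.27 FPKM in the males and 7.04 ± 1.47 FPKM in the females (exact permutation p = 0.0556, and limma log2 fold change −0.46, adjusted p = 0.242). The exact p of *Cx3cr1* ranged from 0.0238, without male 2, to 0.135, without female 4, and was 0.05 or less in 2 of the 10 leave-outs (the other without female 1, p = 0.0397).

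*Cxcl12* (ENSRNOG00000013589, chromosome 4, 149261044 to 149273891), the homeostatic chemokine that holds leukocytes and progenitor cells in tissues, was measured at 34.6, 31.7, 30.3, 26.6 and 32.9 FPKM in the males and 20.4, 29.8, 27.1, 25.1 and 22.8 FPKM in the females. Females 2 and 3 reached the lower end of the male range, and the other 3 lay below it. The means were 31.2 ± 3.05 FPKM (SD, n = 5) in the males and 25.0 ± 3.65 FPKM (SD, n = 5) in the females, 1.25-fold higher in males (exact permutation p = 0.0317, and limma log2 fold change −0.32, SE 0.11, adjusted p = 0.180). The exact p was 0.0556 without male 1, male 2, male 5, female 1 or female 5. *Cxcr4* (ENSRNOG00000003866, chromosome 13, 45314933 to 45318878), its signalling receptor, was at 6.11, 9.45, 4.20, 5.75 and 6.87 FPKM in the males and 3.65, 6.21, 3.02, 2.13 and 3.56 FPKM in the females. Female 2 was the only female above 4 FPKM, a level that every male exceeded. The means were 6.48 ± 1.92 FPKM (SD, n = 5) in the males and 3.71 ± 1.52 FPKM (SD, n = 5) in the females, 1.74-fold higher in males (exact permutation p = 0.0317, and limma log2 fold change −0.82, SE 0.27, adjusted p = 0.160). The exact p of *Cxcr4* was 0.0159 without female 2, 0.0317 without male 3 and between 0.0556 and 0.0635 without any other single library. *Ackr3* (ENSRNOG00000019622, chromosome 9, 97355924 to 97367445), the atypical receptor that scavenges CXCL12, was at 42.7, 48.2, 45.6, 33.2 and 40.5 FPKM in the males and 31.3, 65.6, 45.1, 38.6 and 37.6 FPKM in the females. Its means were 42.0 ± 5.73 FPKM in the males and 43.7 ± 13.2 FPKM in the females (exact permutation p = 0.865, limma 95% interval of the log2 difference −0.38 to 0.41). The sign of that difference changed with total-read or quantile scaling and without female 2, female 3 or male 4. Female 2 held the highest *Ackr3* value and female 1 the lowest. Among the receptors *Ackr3* was by far the most abundant, per length, followed by *Ccr10*, *Cx3cr1* and *Cxcr4*.

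**Figure D3:**
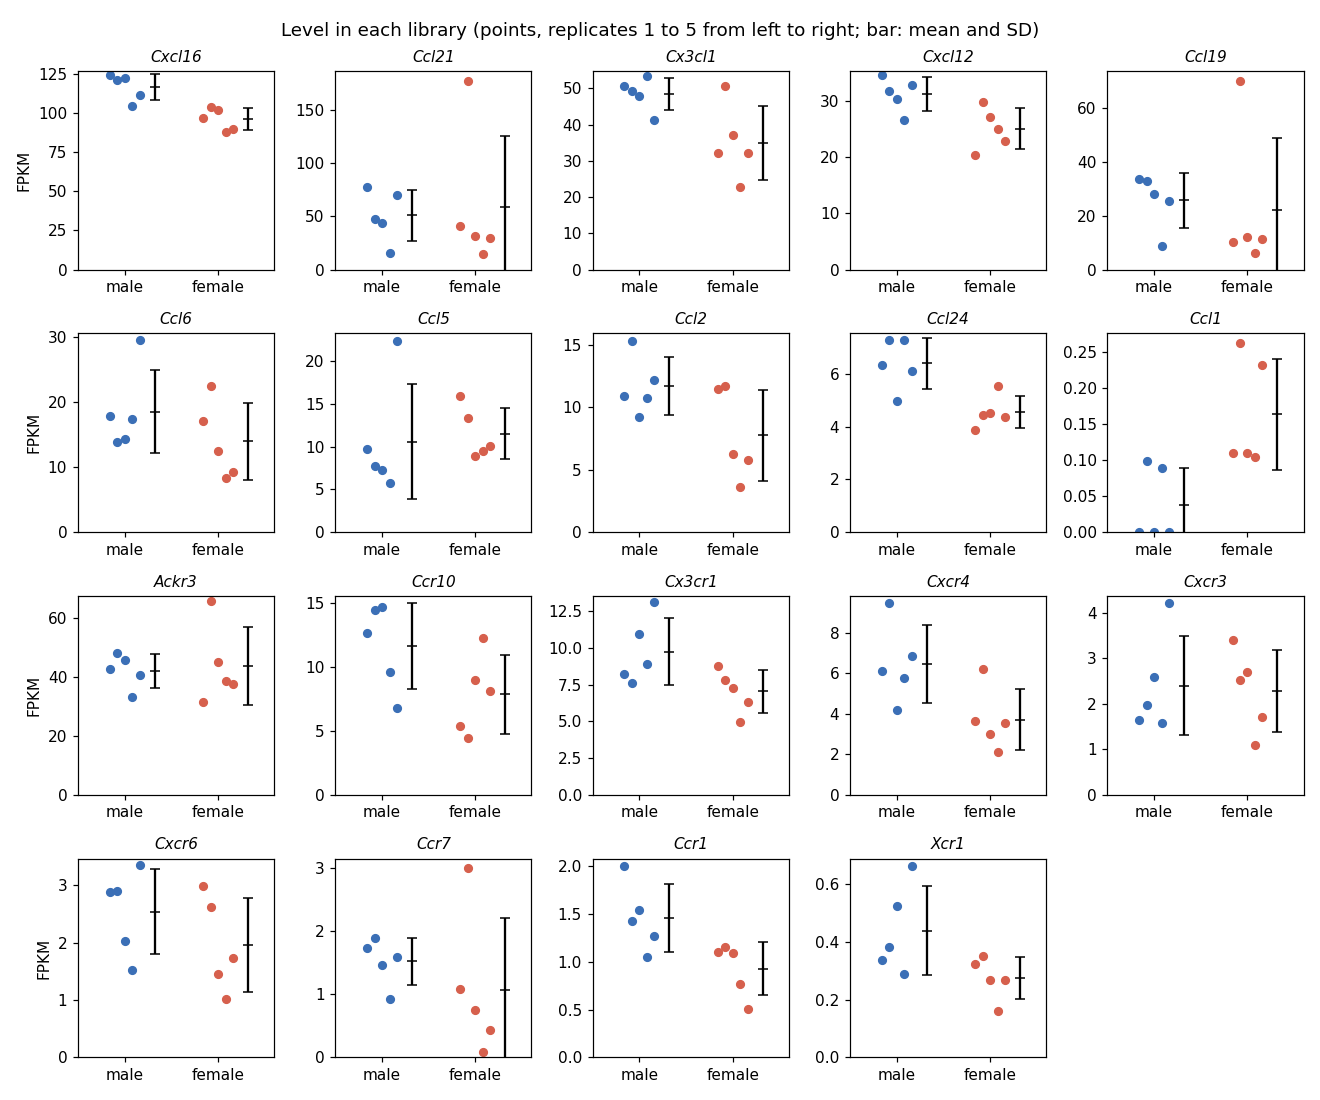
FPKM in each library for 19 of the members described with all values, 1 panel per gene, males in blue and females in red, with the mean and SD as a black bar (n = 5 per sex; bars are ended at 0). *Cxcl16* is the one detectable gene whose values do not overlap, and female 2 stands above the other females in *Ccl21*, *Ccl19* and *Ccr7*.

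Inflammatory CC chemokines attract monocytes, T cells and eosinophils. Of the 12 tested from this group, 10 had a negative log2 difference and 2 a positive one, with a median of −0.46. *Ccl2* (ENSRNOG00000007159, chromosome 10, 69412017 to 69413870), the main attractant of monocytes, was at 10.9, 15.3, 9.22, 10.8 and 12.2 FPKM in the males and 11.5, 11.7, 6.25, 3.59 and 5.79 FPKM in the females. Females 1 and 2 lay within the male range and females 3, 4 and 5 below it. The means were 11.7 ± 2.30 FPKM in the males and 7.77 ± 3.65 FPKM in the females (exact permutation p = 0.103, and limma log2 fold change −0.70, SE 0.30, adjusted p = 0.284). The receptor of CCL2, *Ccr2*, was counted on a gene model of only 286 bases and had 1 to 13 reads per library. Its range was 0.679 to 2.45 FPKM in the males and 0.207 to 2.50 FPKM in the females, and at so few reads its log2 difference, counted with the others, is uncertain. *Ccl7* and *Ccl12*, further attractants of monocytes, were at 3.13 ± 0.973 FPKM in the males and 2.46 ± 2.49 FPKM in the females and at 1.01 ± 0.316 FPKM in the males and 0.671 ± 0.575 FPKM in the females respectively. In both, female 2 was above every other library, and without it the exact permutation p was 0.0159 for each, against 0.635 and 0.302 with it.

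*Ccl24* (ENSRNOG00000031162, chromosome 12, 24148567 to 24152625), an attractant of eosinophils that macrophages make, was at 6.34, 7.29, 4.97, 7.28 and 6.10 FPKM in the males and 3.88, 4.43, 4.52, 5.53 and 4.38 FPKM in the females. Male 3 and female 4 were the only values within the range of the other sex. The means were 6.39 ± 0.961 FPKM (SD, n = 5) in the males and 4.55 ± 0.605 FPKM (SD, n = 5) in the females, 1.41-fold higher in males (exact permutation p = 0.0159, and limma log2 fold change −0.48, SE 0.13, adjusted p = 0.0927). The limma adjusted p of *Ccl24* ranged from 0.0351, with scaling by total reads, to 0.200 over the alternatives. *Ccl26*, its neighbour on chromosome 12, had 1 to 5 reads per library. Their receptor *Ccr3* was low, at 0.134 to 0.318 FPKM in the males and 0.0694 to 0.275 FPKM in the females (exact permutation p = 0.341). *Ccl11*, the third ligand of CCR3, had at most 3 reads in any library.

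*Ccl5* (ENSRNOG00000010906, chromosome 10, 70739800 to 70744315), made by activated T cells and tubule cells, was one of the few members with a higher mean in females, at 9.75, 7.70, 7.26, 5.79 and 22.3 FPKM in the males and 15.9, 13.3, 8.92, 9.44 and 10.03 FPKM in the females. Male 5 had the highest level of all 10 libraries, while females 1, 2 and 5 exceeded the other 4 males. The means were 10.6 ± 6.71 FPKM in the males and 11.5 ± 2.97 FPKM in the females (exact permutation p = 0.810, and limma log2 fold change 0.26, SE 0.32, adjusted p = 0.754). Without male 5 the limma log2 fold change of *Ccl5* was 0.58 (unadjusted p = 0.0173, adjusted p = 0.221, and exact permutation p = 0.0635). *Ccl6* (ENSRNOG00000030021, chromosome 10, 70797124 to 70802782), a macrophage-derived ligand of CCR1, was at 17.8, 13.8, 14.3, 17.4 and 29.5 FPKM in the males and 17.2, 22.5, 12.6, 8.39 and 9.24 FPKM in the females. Its highest values were those of male 5 and female 2, and the ranges overlapped (exact permutation p = 0.254, limma log2 fold change −0.45, adjusted p = 0.492). *Ccl3* and *Ccl4*, made by macrophages and T cells, had means of 1.89 ± 0.764 FPKM in the males and 1.37 ± 0.353 FPKM in the females and of 3.56 ± 0.886 FPKM in the males and 2.91 ± 0.612 FPKM in the females. Neither difference passed the exact permutation test (p = 0.214 and 0.214). *Ccl9*, a further CCR1 ligand, had 1 to 26 reads per library and a limma log2 fold change of −1.15 (unadjusted p = 0.0437, adjusted p = 0.300), and its exact permutation p of 0.127 was 0.00794 without female 2.

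A receptor of several of these ligands also had a lower mean in females. *Ccr1* (ENSRNOG00000006715, chromosome 8, 132996649 to 133002201), found on monocytes, macrophages and neutrophils, was at 2.0, 1.43, 1.54, 1.05 and 1.27 FPKM in the males and 1.10, 1.15, 1.09, 0.765 and 0.511 FPKM in the females. Females 1, 2 and 3 only just exceeded male 4, the lowest male. The means were 1.46 ± 0.355 FPKM (SD, n = 5) in the males and 0.924 ± 0.277 FPKM (SD, n = 5) in the females, 1.58-fold higher in males (exact permutation p = 0.0317, and limma log2 fold change −0.63, SE 0.24, adjusted p = 0.233). Without male 1, male 3, female 4 or female 5 the exact p of *Ccr1* was between 0.0556 and 0.0714. Next to the 653 to 1373 FPKM of macrophage markers in males and 391 to 884 FPKM in females, the place of macrophage number in the levels of *Ccr1* and *Cx3cr1* was not tested.

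*Ccl17* and *Ccl22*, which attract T helper cells through CCR4, had means of 2.98 ± 0.933 FPKM in the males and 2.65 ± 0.665 FPKM in the females and of 0.380 ± 0.148 FPKM in the males and 0.182 ± 0.134 FPKM in the females. *Ccl22* had a limma log2 fold change of −0.81 (adjusted p = 0.308) and an exact permutation p of 0.0714, which became 0.0238 without female 2 and 0.0317 without male 4. *Ccr4* was at 0.436 ± 0.0999 FPKM in the males and 0.241 ± 0.185 FPKM in the females, with an exact permutation p of 0.0794 and of 0.00794 without female 2. *Ccl20*, which epithelium makes for CCR6-bearing lymphocytes and dendritic cells, was at 1.85 to 5.88 FPKM in the males and 1.44 to 11.5 FPKM in the females, with female 2 highest and female 4 lowest. *Ccr6* was at 0.648 to 1.96 FPKM in the males and 0.0882 to 2.24 FPKM in the females. Here too female 2 was the highest library, and females 3, 4 and 5 lay below all males. *Ccl1* (ENSRNOG00000021851, chromosome 10, 69534933 to 69537882), the ligand of CCR8, was at 0, 0.0995, 0, 0.0898 and 0 FPKM in the males and 0.110, 0.263, 0.110, 0.104 and 0.232 FPKM in the females. These values stand for 0 to 1 reads per male and 1 to 2 per female, so no fold is given although the ranges did not overlap, as they did not in that direction for 2.50% of all genes. *Ccr8* had 1 to 7 reads in males and 0 to 8 in females.

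The interferon-inducible chemokines *Cxcl9*, *Cxcl10* and *Cxcl11* attract activated T cells through CXCR3. *Cxcl11*, described with all its values because it passed in one alternative, was at 10.1, 11.3, 10.7, 8.33 and 11.8 FPKM in the males and 7.51, 12.0, 5.83, 7.05 and 4.72 FPKM in the females. Female 2 had the highest value of all and the other 4 females lay below every male. The means were 10.4 ± 1.33 FPKM in the males and 7.43 ± 2.80 FPKM in the females (exact permutation p = 0.0794, and 0.0159 without female 2, with a limma adjusted p of 0.236 in all 10 libraries). *Cxcl10* was at 8.50 ± 1.80 FPKM in the males and 7.36 ± 2.94 FPKM in the females (exact permutation p = 0.476), and *Cxcl10* and *Cxcl11* both overlap *Art3*. *Cxcl9* was at 1.26 to 7.61 FPKM in the males and 1.55 to 4.03 FPKM in the females, where male 5 alone reached 7.61 FPKM and the other males stayed at or below 1.99 FPKM. *Cxcr3* (ENSRNOG00000003305, chromosome X, 71614346 to 71616997) was at 1.64, 1.97, 2.59, 1.58 and 4.21 FPKM in the males and 3.40, 2.52, 2.71, 1.09 and 1.70 FPKM in the females. Male 5 was again the highest library, the ranges overlapped widely, and the limma log2 fold change of −0.07 (95% interval −0.80 to 0.66) took the other sign with quantile normalization or without male 5, female 4 or female 5.

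Among the homeostatic chemokines of lymphoid tissue, *Ccl21* and *Ccl19* differed less between the sexes in mean FPKM than their SD within either sex. *Ccl21* (ENSRNOG00000034290, chromosome 5, 58197680 to 58198782), made by lymphatic endothelium and by stroma of lymphoid tissue, had the second highest mean of the 56 genes, at 77.0, 47.8, 43.3, 15.9 and 69.8 FPKM in the males and 40.4, 177, 31.6, 14.9 and 29.2 FPKM in the females. The range within females was from female 4 to female 2, and it took in all 5 males. *Ccl19* (ENSRNOG00000015668, chromosome 5, 58181026 to 58183017), which binds the same receptor, was at 33.8, 32.8, 28.0, 8.67 and 25.3 FPKM in the males and 10.1, 70.2, 12.2, 6.01 and 11.4 FPKM in the females. Female 2 was again the highest, and the other 4 females lay below all males but male 4. Neither gene passed the exact permutation test (p = 0.937 for *Ccl21* and 0.857 for *Ccl19*), and without female 2 the p of *Ccl19* was 0.0397. The limma log2 fold change of *Ccl21* was −0.17 with an SE of 0.61. Its sign turned without female 4 or without male 1, and the value was −0.71 without female 2. That of *Ccl19* was −0.70 (SE 0.60, limma adjusted p = 0.635), and −1.27 without female 2 (limma adjusted p = 0.113). Their receptor *Ccr7* (ENSRNOG00000010665, chromosome 10, 87057136 to 87067456), on naive T cells, B cells and mature dendritic cells, was at 1.73, 1.89, 1.46, 0.920 and 1.59 FPKM in the males and 1.09, 2.99, 0.748, 0.0793 and 0.441 FPKM in the females. Female 2 had the highest value and female 4 only 2 reads. The limma log2 fold change of *Ccr7* was −1.004 (SE 0.61, adjusted p = 0.465), and its exact permutation p was 0.444, or 0.0238 without female 2.

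*Cxcl13*, which draws B cells into follicles, was at 17.1, 6.43, 4.08, 6.02 and 26.6 FPKM in the males and 4.03, 10.3, 4.17, 2.24 and 3.09 FPKM in the females. Males 1 and 5 and female 2 were the 3 highest. Its receptor *Cxcr5* was at 0.882 to 1.78 FPKM in the males and 0.832 to 1.66 FPKM in the females (exact permutation p = 0.500). Over the same libraries, 6 B cell markers summed to 22.0 FPKM in female 2 and 1.43 to 5.54 FPKM in the other females, and to 5.65 to 19.0 FPKM in males. Thus the female library with the most *Ccl21*, *Ccl19*, *Cxcl13*, *Ccr7* and *Cxcr5* also had the most B cell transcript, and female 4 had the least of *Ccl21*, *Ccl19*, *Cxcl13* and *Ccr7* and of the B cell markers. The 4 lymphatic endothelial markers were also highest in female 2 and lowest among females in female 4 (28.2 and 14.3 FPKM). Female 2 further had the highest mitochondrial share of reads (26.8%, against 14.3% to 19.1% in the other females). The part of lymphoid tissue, of lymphatic vessels or of library composition in these values was not tested.

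**Figure D4:**
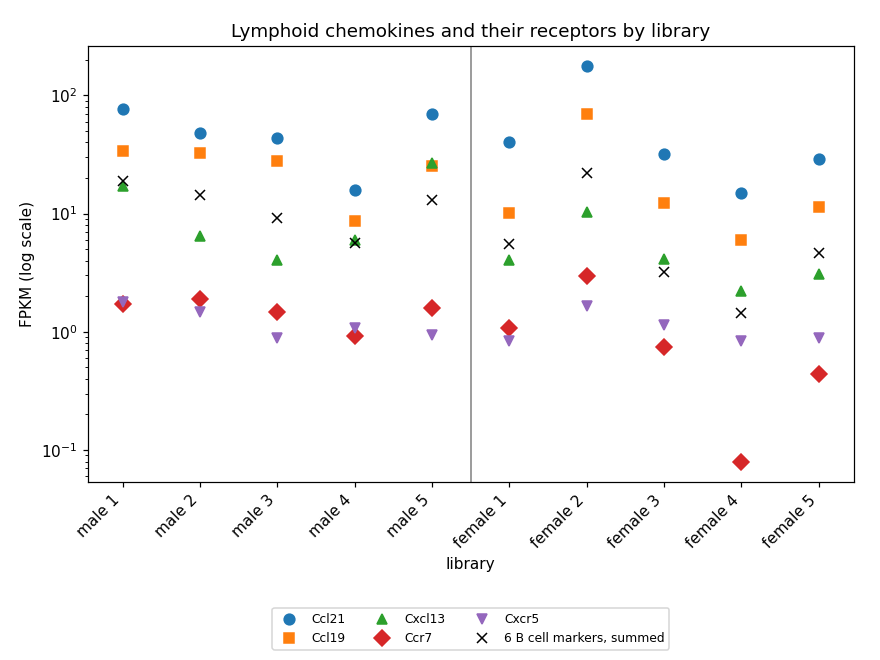
FPKM on a log scale of *Ccl21*, *Ccl19*, *Cxcl13*, *Ccr7* and *Cxcr5*, and the summed FPKM of 6 B cell markers (crosses), in each of the 10 libraries, with males to the left of the grey line. Female 2 holds the highest *Ccl21*, *Ccl19* and *Ccr7* values and the highest sum of B cell markers, and female 4 the lowest of each.

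*Ccr10* (ENSRNOG00000020275, chromosome 10, 89086556 to 89088993), the receptor of the epithelial chemokines CCL27 and CCL28, was the most abundant of the signalling receptors, at 12.6, 14.4, 14.6, 9.56 and 6.78 FPKM in the males and 5.41, 4.40, 8.98, 12.2 and 8.11 FPKM in the females. Males 1, 2 and 3 lay above all females, whereas males 4 and 5 lay within the female range. The means were 11.6 ± 3.38 FPKM in the males and 7.83 ± 3.10 FPKM in the females (exact permutation p = 0.111, with a range from 0.0397, without male 5, to 0.214, without male 3, and limma log2 fold change −0.60, SE 0.29, adjusted p = 0.353). Its lowest value was that of female 2. Its ligands were at 3.83 ± 0.288 FPKM in the males and 3.83 ± 0.734 FPKM in the females (*Ccl28*, exact permutation p = 1.0, limma 95% interval of the log2 difference −0.32 to 0.28) and at 2.66 ± 0.583 FPKM in the males and 3.29 ± 0.657 FPKM in the females (*Ccl27*, exact permutation p = 0.159, or 0.0476 without female 4). *Ccl27* overlaps *Il11ra1*. *Cxcl14*, a constitutive chemokine of epithelium, was at 4.23 ± 1.13 FPKM in the males and 3.82 ± 1.41 FPKM in the females, and *Cxcl17*, a mucosal chemokine, had 1 to 7 reads per library (exact permutation p = 0.190, or 0.0159 without male 2). *Ccl25*, a chemokine of the thymus and gut, had at most 4 reads in any library (exact permutation p = 0.167, or 0.0159 without male 5).

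The neutrophil ligands of CXCR2 were low. *Cxcl1*, *Cxcl2* and *Cxcl6*, which act on neutrophils through CXCR2, had means of 1.83 ± 0.522 FPKM in the males and 1.25 ± 0.732 FPKM in the females, of 0.289 ± 0.106 FPKM in the males and 0.187 ± 0.231 FPKM in the females and of 1.07 ± 0.300 FPKM in the males and 0.758 ± 0.585 FPKM in the females in this order. All 3 had a negative log2 difference and none passed the exact permutation test with all libraries. Without female 2, which had the highest value of each, the exact p was 0.0238 for *Cxcl1*, 0.0159 for *Cxcl2* and 0.0635 for *Cxcl6*. *Cxcr2* had 1 to 14 reads per library. Neutrophil markers were also low, with sums over 7 markers of 1.54 to 14.9 FPKM for the males and 0.853 to 4.18 FPKM for the females, and *Mpo* among them had at most 3 reads in any library. *Xcr1* (ENSRNOG00000006620, chromosome 8, 132911486 to 132919110), a receptor of cross-presenting dendritic cells, was at 0.337, 0.382, 0.525, 0.287 and 0.663 FPKM in the males and 0.324, 0.353, 0.266, 0.160 and 0.267 FPKM in the females. Males 2, 3 and 5 lay above all females, and the exact permutation p of 0.0476 (limma adjusted p = 0.400) became 0.0556 to 0.127 without male 3, male 5 or any single female. Its ligand *Xcl1* was at 0.774 to 2.66 FPKM in the males and 0.626 to 1.77 FPKM in the females, highest in male 5. *Ackr4*, which scavenges CCL19, CCL21 and CCL25 and overlaps *Acad11*, was at 0.398 ± 0.0442 FPKM in the males and 0.423 ± 0.130 FPKM in the females, with 7 to 17 reads per library. *Ccr9*, the receptor of CCL25, had 4 to 9 reads per library, and *Ackr2* and *Cxcl3*, too low for the limma fit, had at most 6 and 5.

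The libraries at the ends of the range were few. Female 2 had the highest level of 19 of the 50 genes tested (18.8% of all genes) and male 5 of 12 (14.3% of all genes). Female 4 had the lowest level of 28 (16.9% of all genes), and female 5 of 7 (6.68% of all genes). Female 4 also had the lowest sums of macrophage, T cell, B cell and fibroblast markers among the 10 libraries, at 391, 19.8, 1.43 and 86.9 FPKM. Male 5 had the highest sums of macrophage and T cell markers, at 1373 and 76.5 FPKM. Without female 4, 37 of the 50 genes had a log2 difference below 0, the lowest count over the alternatives that tested the same 50 genes. The part of leukocyte content in this pattern was not tested.

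**Figure D5:**
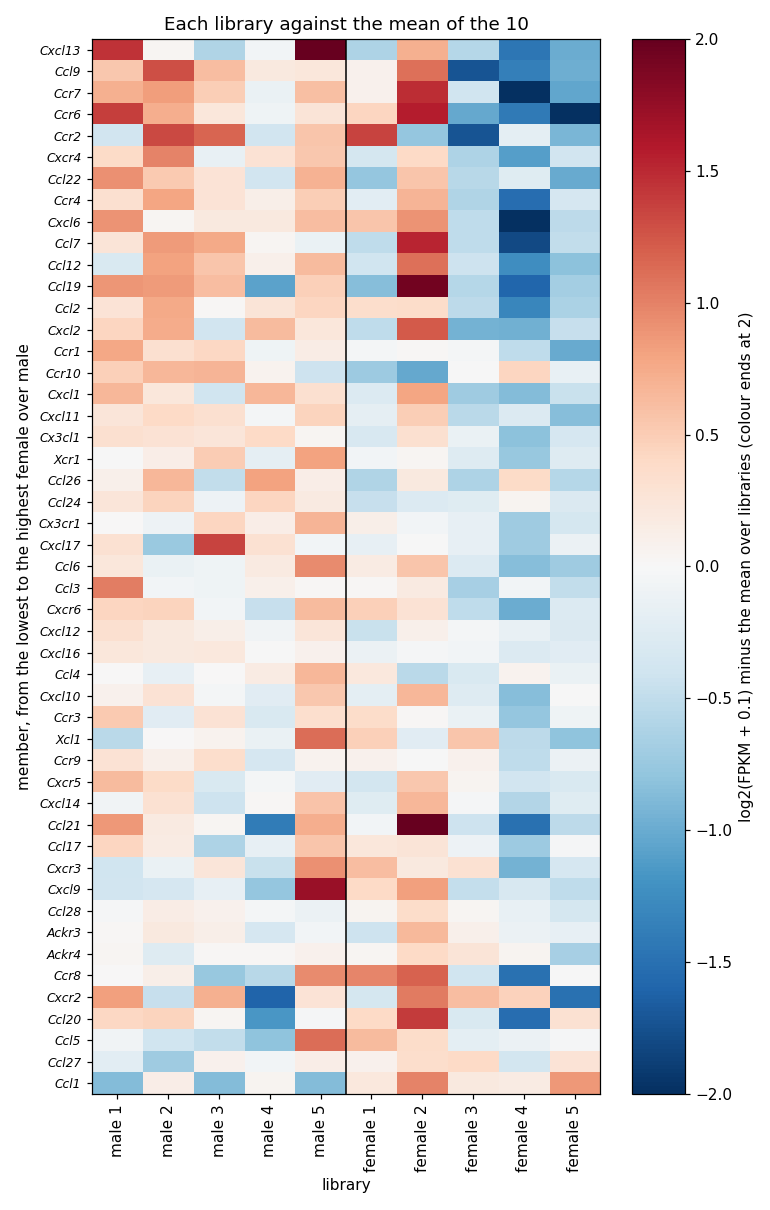
Deviation of each of the 10 libraries (columns) from the mean of the 10 on the log2(FPKM + 0.1) scale, for 49 of the 50 genes tested (rows, from the lowest to the highest female over male), with the colour ended at 2. Female 2 is the reddest of the female columns and female 4 the bluest, with the lowest value of 27 of these genes.

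Many of these genes lie in clusters on Rnor_6.0. The CC ligand clusters on chromosome 10 reached from *Ccl2* to *Ccl1* (69412017 to 69537882) and from *Ccl5* to *Ccl4* (70739800 to 70886355), with 3 of 4 and 4 of 5 tested genes below 0. The exceptions were *Ccl1* and *Ccl5*. On chromosome 14, *Cxcl11* to *Cxcl9* (17195014 to 17234712) had 3 of 3 below 0, and *Cxcl2* to *Cxcl6* (18731378 to 18862407) had 3 of 3. *Cx3cl1* lies between *Ccl17* and *Ccl22* on chromosome 19 (10619220 to 10681145), and all 3 were below 0. *Ccl24* and *Ccl26* on chromosome 12 were both below 0. Of *Ccl27*, *Ccl19* and *Ccl21* on chromosome 5, 2 of 3 were below 0, the exception being *Ccl27*. The receptor genes *Ccr9*, *Cxcr6*, *Xcr1*, *Ccr1* and *Ccr3*, which lie together on chromosome 8, were all below 0, as was *Ccr2* with its few reads. Of the receptor pair *Cx3cr1* and *Ccr8* on chromosome 8, *Ccr8* was above 0, and of *Cxcr2* and *Cxcr1* on chromosome 9 the 1 tested, *Cxcr2*, was above 0. Neighbours in these clusters are related in sequence, and reads that fit several of them may have been split or dropped in counting, which the sources used here do not describe.

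Other genes of the pathway, outside the naming rule, were listed by function. Of 88 symbols, 85 were found, in 86 rows since *Tnf* has 2, and 80 rows were tested, and 67 of the 80 had a negative log2 difference, with a median of −0.28, where 51.2% of all genes did. Of the 80, 2 had an adjusted limma p of 0.05 or less, both lower in females, a share of 2.50% against 1.14% of all genes. *Rgs1* (chromosome 13, 61066153 to 61070599), which ends the Gi signal of chemokine receptors in lymphocytes, was at 11.9, 14.3, 6.45, 16.3 and 10.4 FPKM in the males and 4.76, 5.46, 2.56, 1.41 and 2.39 FPKM in the females. Every male lay above every female, with means of 11.9 ± 3.77 FPKM and 3.31 ± 1.71 FPKM (limma log2 fold change −1.90, SE 0.36, adjusted p = 0.0186). *Pak1* (chromosome 1, 162768156 to 162883355), a kinase downstream of Rac in cell movement, was at 15.9 ± 1.298 FPKM for the males and 12.4 ± 0.352 FPKM for the females (limma log2 fold change −0.35, SE 0.07, adjusted p = 0.0332). The number with an adjusted p of 0.05 or less was 7 without female 2, 0 without female 5 or male 2, and 1 without any of the other 7 libraries. It was also 0 with the replicate number as a block and 1 with eBayes without trend. *Rgs1* was also past 2-fold, and the number past both thresholds was 0 without female 5, male 2, male 4 or male 5 and 2 without female 2.

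By list, and against the same 51.2% of all genes, 27 of 33 signalling genes were below 0, with 7 lower and 1 higher at an unadjusted limma p of 0.05 or less (8.07% and 7.67% of all genes), and *Gnai2* and *Rac1*, the most abundant of them, were at 110.3 ± 6.94 and 105 ± 10.3 FPKM in males and 109 ± 17.8 and 107 ± 5.83 FPKM in females. Among the inducers and the NF-kB genes, 18 of 20 were below 0 and 10 were lower and 0 higher at that threshold, with *Ifngr1* at 48.1 ± 6.30 and 39.6 ± 5.91 FPKM and *Nfkbia* at 42.9 ± 5.33 and 34.2 ± 9.10 FPKM. Of the adhesion and processing genes, 15 of 19 were below 0, with 3 lower and 1 higher at that threshold, and *Sdc4* and *Dpp4*, the most abundant, were at 180.4 ± 15.6 and 152 ± 19.0 FPKM in males and 170.4 ± 8.28 and 166 ± 27.7 FPKM in females. Of the chemokine-like genes, 7 of 8 were below 0, with 2 lower and 1 higher at that threshold. *Rarres2*, the gene of chemerin, was at 56.3 ± 11.2 and 36.8 ± 6.31 FPKM (exact permutation p = 0.0238, limma adjusted p = 0.0922), and *Mif* was at 133 ± 275 and 9.07 ± 1.52 FPKM, with the male mean set by male 5.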

How the data were processed

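Total RNA was extracted with TRIzol, and poly-A libraries, 1 per rat, were sequenced by Novogene. The authors' provider mapped the reads with HISAT2 (2.0.5) to Ensembl Rnor_6.0 and the authors deposited 1 table of FPKM per gene. The submitters' processing notes also name fastp, StringTie (1.3.3b) and featureCounts (1.5.0-p3), without their roles. The strand setting of the counting is not given in the sources used here. The authors' DESeq2 counts were not used. No per-sample column was left out. Dividing each FPKM by the worth of 1 read at the gene's length gave whole numbers (within 0.01) for 100% of values, and reads and the limit of 3 reads come from this. The median-ratio factor was 1.01 in all libraries, so the FPKM were used as deposited. Limits cover counting error only, since reads carried no molecular identifiers.

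Samples were grouped by the sex in the labels. limma 3.58.1 (lmFit and eBayes with trend, R 4.3.3) was fitted to log2(FPKM + 0.1) over the 17631 genes whose mean reached 0.1 FPKM, female minus male, with Benjamini-Hochberg adjustment over all of them. Fold changes on this scale understate the change of low genes. Calls were made at an adjusted p of 0.05 or less, with and without a log2 fold change of at least 1. Each member with more than 3 reads in some library was also compared by mean FPKM in an exact permutation test, two-sided (Python 3.11.15, scipy 1.17.1). On simulated data for this comparison, limma recovered 171 of 196 genes changed 4-fold (87.2%) and called 9 of 17157 unchanged ones. Recovery of smaller differences, such as the 1.21-fold of *Cxcl16* or the 1.74-fold of *Cxcr4*, was not tested.

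Values in every library are given for members past a test, with separate ranges, or among the 8 ligands and 8 receptors of highest mean, and the 2 most abundant genes of each other list are named. 1 gene is counted but not reported here by name. Outside that rule, *Cxcl11*, *Cxcl13* and others were described after their values were seen. Members and lists were chosen with earlier results of these data known. *Grk2*, *Grk3* and *Ticam1* were not matched by symbol and are not analysed here. Alternatives were a pseudocount of 1 or 0.01, leaving the low genes in, a minimum mean of 1 FPKM, scaling by total reads, quantile normalization, eBayes without trend, robust eBayes, limma-voom on the recovered reads, the replicate number as a block and each library left out. Leaving out female 2 and male 5 together was added after seeing the data. Replicates are separate rats, but litter mates among them could share a litter effect.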

Additional observations from a re-analysis of the deposited data

Results flagged for a closer look

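In 17 of 104 groups formed by 1 gene and 1 sex, a single rat stood apart from the other 4 of its sex by Dixon's test at the 95% level. That level gives about 1 in 20 only for normal and independent values, and these groups share the same 10 rats. The 17 are 16.3% of the groups, against 7.44% of the 33590 such groups over all genes tested. The same 2 libraries led over all genes, where female 2 held 29.4% and male 5 18.7% of the values that stood apart. Among the chemokine genes, female 2 accounted for 7 of the 17, all of them high values. Its *Ccl21* was 177 FPKM, against 14.9 to 40.4 FPKM in the other females, and its *Ccl19* was 70.2 FPKM, against 6.01 to 12.2 FPKM. Its *Cxcl13* was 10.3 FPKM, against 2.24 to 4.17 FPKM. The monocyte attractants *Ccl7* and *Ccl12* were at 6.85 and 1.68 FPKM there, against at most 1.63 and 0.528 FPKM in the other females. The neutrophil attractants *Cxcl1* and *Cxcl2* were at 2.53 and 0.596 FPKM, against at most 1.16 and 0.117 FPKM.

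Male 5 accounted for 4, also high. Its *Ccl6* was 29.5 FPKM, against at most 17.8 FPKM in the other males, and its *Ccl5* was 22.3 FPKM, against at most 9.75 FPKM. *Cxcl9* was at 7.61 FPKM, against at most 1.99 FPKM, and *Xcl1* at 2.66 FPKM, against at most 1.24 FPKM.

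The other 6 were single values of low genes. *Ccl3* was at 3.25 FPKM in male 1, against at most 1.67 FPKM in the other males. *Ackr2* was at 0.309 FPKM in male 3, against at most 0.0963 FPKM, and *Ackr4* at 0.320 FPKM in male 2, against at least 0.410 FPKM. *Ccr2* was at 2.50 FPKM in female 1, against at most 0.791 FPKM in the other females. *Ccl25* was at 0.0944 FPKM in female 5, against at most 0.0533 FPKM, and *Cxcl17* at 0.0711 FPKM in female 4, against at least 0.149 FPKM.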

How the results depend on the processing

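The number of all genes past both thresholds, 232, was 137 with a pseudocount of 1. Chemokine and receptor genes past both thresholds numbered 0, and 0 to 1 with single libraries left out. Those with an adjusted limma p of 0.05 or less numbered 0, and 1 with scaling by total reads, 1 without female 2 and male 5, and 0 to 3 with single libraries left out. Genes below 0 numbered 37 to 47 of the 50 in the fits that left out 1 library. Exact permutation calls numbered 7, 10 with scaling by total reads, 5 with quantile normalization, and 2 to 16 with single libraries left out. Chemokine genes lower at an unadjusted limma p of 0.05 or less numbered 12, and 5 to 23 with single libraries left out. Other pathway genes past both thresholds numbered 1, and 0 to 2 with single libraries left out, and those with an adjusted p of 0.05 or less 2, and 0 to 7.

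The replicate numbers did not pair the samples: deviations of same-numbered males and females correlated at −0.10 to 0.07, and 1 of 5 males matched its own number best. With the replicate number as a block, 0 chemokine genes passed at an adjusted p of 0.05 or less or past both thresholds, 42 stayed below 0, other pathway genes passed in 0 cases under either threshold, and exact calls within numbers 0, where the smallest p possible is 0.0625. Over all genes the block left 119 higher and 112 lower at an adjusted p of 0.05 or less.

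Of the 50 genes tested, 11 took the other sign in at least 1 alternative, all with a log2 difference of at most 0.21 in size with all libraries, and 3 of these are among the 21 genes whose values were followed through every alternative that tested them. *Ackr3* (0.02 in all libraries) was at −0.056 with scaling by total reads, −0.027 with quantile normalization, −0.15 without female 2 and male 5, and −0.14 to 0.13 with single libraries left out. *Ccl21* (−0.17) was at −0.71 to 0.18 with single libraries left out. *Cxcr3* (−0.07) was at 0.022 with quantile normalization, 0.094 without female 2 and male 5, and −0.23 to 0.16 with single libraries left out. The cause was not tested. Of the 439 recomputed log2 fold changes of those 21 genes, 421 kept their direction and side of the threshold, 13 turned and 5 passed where they had not. Counts are not in this tally. Depth limits the members with few reads: 4 had at most 3 reads in every library, where a difference was not detectable.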

Other observations

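*Mif*, a chemokine-like ligand of CXCR2 and CXCR4 on chromosome 20 (13732198 to 13732859), was at 624 FPKM in male 5 and at 5.77 to 11.8 FPKM in the other 9 libraries. It was not among the members, and its difference between the sexes did not pass (exact permutation test, p = 0.317, limma adjusted p = 0.612).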
